A study of Homo sapiens with 17 samples.

Results

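Polymerase pausing was examined at the 844 genomic sites whose pausing time was long in both series of run-on libraries made with sarkosyl. A site is 1 base on 1 strand. The members were chosen by their own pausing times: of the 18016 sites listed in both sarkosyl series, those at or above the 90% quantile of each series were kept, and they made up 4.68% of the shared sites. The other 17172 shared sites were the background. Time-variant precision run-on sequencing, in which engaged polymerases of permeabilised cells extend their RNA by labelled nucleotides for a set time, had been done in HEK293, an established cell line of human embryonic kidney origin. Run-on lasted 0.5, 2, 8 or 32 min in buffer with or without the detergent sarkosyl, in 2 biological replicates, which gives 16 libraries. Each table of pausing times covers 1 buffer and 1 replicate and is called a series here. All 4 series came from unmodified HEK293 cells, with no other treatment named in their labels, so sarkosyl and the run-on time were the variables.

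RNA polymerase II often halts shortly after it has started a gene, held by the factors NELF and DSIF until the kinase P-TEFb releases it. It also slows at other places, for example at certain sequences, near splice sites and after the cleavage site at a gene's 3′ end. Biochemical and genomic studies place pauses where the RNA ends in a pyrimidine and the next base to be added is G. Sarkosyl strips most proteins from the template, so polymerases in that buffer extend without many of their regulators, while engaged complexes stay active.

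The sequences around some of these sites show what a member looks like. The first lines give 4 of the members in NEAT1, a long non-coding RNA that scaffolds nuclear paraspeckles and one of the genes with the most members, on the plus strand of chromosome 11. They are followed by the NEAT1 shared sites with the shortest sarkosyl times, chosen after their values were seen, for contrast. Each line holds 20 bases before the site, the site and 20 bases after it, read 5′ to 3′ from GENCODE 29 transcripts on GRCh38. Capitals mark the 4 bases before the site and, as the last capital, the site itself.
NEAT1 member at chr11:65427310-65427350: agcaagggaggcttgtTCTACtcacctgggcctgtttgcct
NEAT1 member at chr11:65444421-65444461: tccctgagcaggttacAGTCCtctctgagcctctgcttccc
NEAT1 member at chr11:65445278-65445318: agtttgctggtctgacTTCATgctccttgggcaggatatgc
NEAT1 member at chr11:65445301-65445341: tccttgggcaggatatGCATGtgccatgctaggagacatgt
NEAT1 short site at chr11:65423338-65423378: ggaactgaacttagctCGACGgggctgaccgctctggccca
NEAT1 short site at chr11:65438050-65438090: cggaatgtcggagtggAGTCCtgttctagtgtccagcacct
NEAT1 short site at chr11:65424002-65424042: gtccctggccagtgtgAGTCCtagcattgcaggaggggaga
NEAT1 short site at chr11:65434694-65434734: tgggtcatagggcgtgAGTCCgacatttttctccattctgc
NEAT1 short site at chr11:65435818-65435858: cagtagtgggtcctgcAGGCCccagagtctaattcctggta

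Members elsewhere are shown because they had the longest times or lay 151 to 200 bp downstream of a start, as described below. Others had the lowest or highest sarkosyl-free times, and ZNF711 was among the genes with the most members. The site in AL391095.3, a long non-coding RNA gene, and those in AC103591.3 and H2AFZ are on the minus strand, the others on the plus strand. The lines for the sites 151 to 200 bp from a start were selected after that bin had been seen. In these lines the start is the nearest annotated transcript start before the site, which can lie inside the gene.
AL391095.3, exon, chr20:38418554-38418594: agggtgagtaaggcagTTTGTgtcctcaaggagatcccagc
ASH1L-AS1, exon, chr1:155563341-155563381: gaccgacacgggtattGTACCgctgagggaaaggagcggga
ZNF711, exon, chrX:85255489-85255529: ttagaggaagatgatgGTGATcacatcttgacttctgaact
AC103591.3, 175 bp from the start, chr1:78004359-78004399: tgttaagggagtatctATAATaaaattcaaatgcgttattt
RNVU1-14, 152 bp from the start, chr1:145281248-145281288: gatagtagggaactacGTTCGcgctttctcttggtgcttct
H2AFZ, 174 bp from the start, chr4:99950060-99950100: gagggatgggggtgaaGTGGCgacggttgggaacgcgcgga
CD68, 196 bp from the start, chr17:7579814-7579854: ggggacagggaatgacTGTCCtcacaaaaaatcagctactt
Z93241.1, exon, chr22:42615687-42615727: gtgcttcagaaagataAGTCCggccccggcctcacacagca
JPX, 103 bp from the start, chrX:73944450-73944490: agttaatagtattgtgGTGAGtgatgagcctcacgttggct

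Pausing times are given as deposited, as the reciprocal of a rate rounded to 3 decimals; the unit of time is not stated in the sources used here, and no read numbers were at hand, so depth is unknown. The threshold was 7.35 in sarkosyl replicate 1 and 4.78 in replicate 2. Members ranged from 7.35 to 167.0 in replicate 1, with a median of 13.9, and from 4.78 to 100 in replicate 2, with a median of 9.09. The other shared sites had medians of 1.39 and 1.41. These values chose the members and describe them only. The threshold was passed in each series by 1813 sites, so 969 sites of each were long in that series alone. At the members themselves, the time was longer in replicate 1 at 644 sites, longer in replicate 2 at 196 and tied at 4, and the median ratio of replicate 1 to replicate 2 was 1.49. The authors' own uncertainty was wide at members and at the other shared sites alike. The upper quartile of the fitted rate was a median of 2.53 times the lower at members in replicate 1, against 2.80 at the others. In replicate 2 it was 4.27 times, against 3.41, so the direction differed between the series. The scatter of both series shows the members as 1 corner of a continuous cloud, with no gap at the thresholds.

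**Figure D1:**
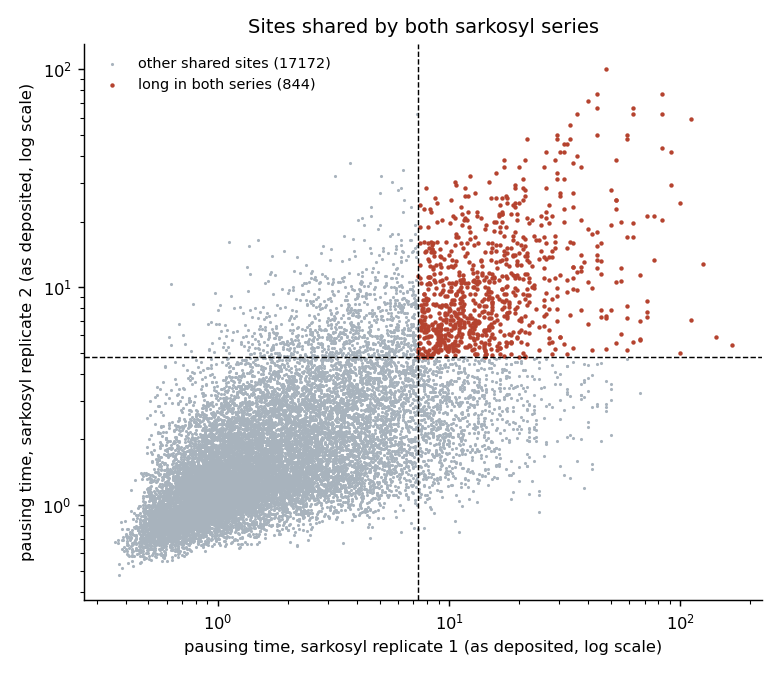
Pausing time of each of the 18016 shared sites in sarkosyl replicate 1 (x axis) and replicate 2 (y axis), both as deposited on log scales; dashed lines are the 90% quantiles, 7.35 and 4.78. The 844 members (red) fill the upper right corner and border directly on other shared sites.

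Just inside the thresholds lay sites in CRIP3 (7.35 in replicate 1 and 4.78 in replicate 2), ADAMTS1 (7.69 and 4.78) and HIST1H1C (7.35 and 5.03). Just outside lay RPS19 (7.30 and 7.69) and a pair of minus-strand sites on chromosome 19 outside genes of their strand, at positions 47924805 (11.8 and 4.76) and 35267906 (11.4 and 4.76). Membership at the edge thus turned on a difference in the last digits of 1 series.

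Where members lay along genes was not used to choose them. A start here is the 5′ end of any annotated transcript, so it can lie inside a gene. Of the 844 members, 313 (37.1%) lay in the first 300 bp after a start of their strand, against 30.8% of the other shared sites. A further 110 (13.0% against 11%) lay in exons, 137 (16.2% against 17.9%) in introns and 6 (0.711% against 0.454%) within 50 bp downstream of an exon's end. Within 5000 bp past a gene's end lay 99 (11.7% against 10.6%), and 72 (8.53% against 7.91%) were antisense and upstream of a start. The remaining members were 53 antisense sites within genes, 36 in none of these classes, 17 on unplaced or alternative contigs and 1 mitochondrial site. Members and background come from the same libraries, so no test was made of these shares. The promoter-proximal difference of 6.29 percentage points was -0.66 with a window of 150 bp and -0.17 when members were taken from replicate 2 alone, and the intron difference of -1.70 became 3.21 in the latter case, so the direction of both depended on these choices.

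Within the promoter-proximal zone the members were unevenly placed. Of the shared sites 0 to 60 bp from a start, 78 of 2863 (2.72%) were members, below the 4.68% over all shared sites. The share was 5.79% at 61 to 100 bp, 8.60% at 101 to 150 bp and 15.9% (55 of 347) at 151 to 200 bp, and then 7.16% at 201 to 300 bp. Members were thus scarce where promoter-proximal sites were most numerous and most frequent well downstream of that zone. The 55 members of the 151 to 200 bp bin lay in 55 different genes. They included NUDC (29.4 in replicate 1 and 9.90 in replicate 2), a dynein-associated chaperone gene, INCENP (26.3 and 20.8), a subunit of the mitotic chromosomal passenger complex, and RPS26 (20.8 and 25), a ribosomal protein. INSM1 (37.0 and 35.7), a neuroendocrine transcription factor, and CKS2 (62.5 and 19.6), a partner of cyclin-dependent kinases, were among them too. Where the start was that of a protein-coding gene, 45 of the 236 shared sites in this bin were members (19.1%). Where it was that of a small RNA gene, 3 of 49 were (6.12%), all of them U1 snRNA variants. Inside exons 38 of 256 sites of the bin were members (14.8%) and outside them 17 of 91 (18.7%). The 50% of shared sites with the smaller relative uncertainty in each series did not show the excess: there the bin held 0.60 percentage points more of the members than of the other sites, against 4.82 over all shared sites. With members taken from replicate 2 alone it was 2.76 and from replicate 1 alone 2.52. These alternatives were added after the bin had been seen.

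The same distances were then read at the unshared sites of each sarkosyl series, which the rule did not use, and at all sites of each sarkosyl-free series. Of the unshared sites of sarkosyl replicate 1, 130 of 455 in the 151 to 200 bp bin were past that series' threshold (28.6%, against 13.2% of all its unshared sites). In sarkosyl replicate 2 the numbers were 55 of 510 (10.8%, against 5.48%). In both sarkosyl series the share in the bin was thus above that over all unshared sites, though these sites come from the same libraries as the members. In the sarkosyl-free series, with long taken as the top 10% of each table, the bin held 10.4% long sites in replicate 1 and 8.75% in replicate 2, close to the 10.1% and 10.2% over all sites. The bin's share of long sites minus its share of other sites was 1.88 ± 0.170 percentage points with sarkosyl and -0.0776 ± 0.169 without (SD, n = 2 each). The exact permutation test over series gave p = 0.33, the smallest it can give with 2 against 2.

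**Figure D2:**
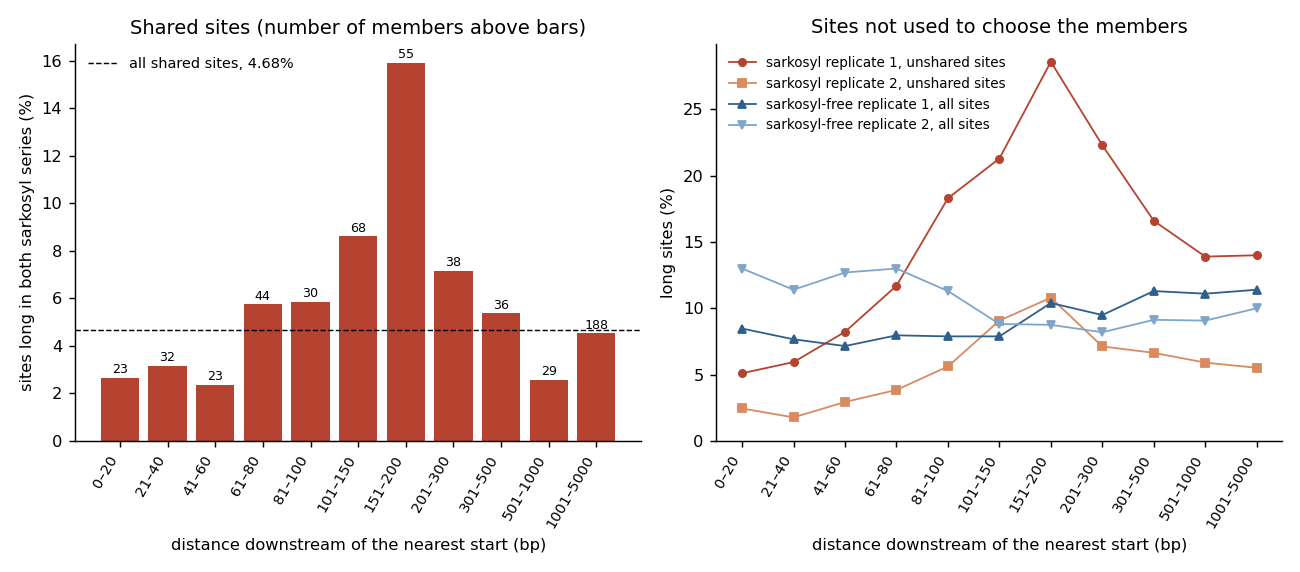
Left, percentage of shared sites that are members by distance downstream of the nearest start (bars, number of members above, dashed line the 4.68% over all shared sites); right, percentage of long sites by the same distances among the unshared sites of each sarkosyl series and all sites of each sarkosyl-free series. The bars and both sarkosyl lines are highest at 151 to 200 bp, at 15.9%, 28.6% and 10.8%, while the sarkosyl-free values there are 10.4% and 8.75%.

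In single genes, for example CPSF6 and NIPBL-DT, promoter-proximal members lay in tight groups. CPSF6, a subunit of the cleavage factor that binds pre-mRNA before polyadenylation, had 4 shared sites, and 3 of them were members. They lay 65, 69 and 86 bp downstream of a start on chromosome 12, at positions 69239707, 69239711 and 69239728, the first of them 1 bp past the end of an exon. Their times were 21.3, 17.9 and 30.3 in replicate 1 and 16.7, 25.6 and 27.0 in replicate 2, whereas the fourth shared site, 7 bp before the first, had 1.79 and 1.25. NIPBL-DT, the divergent transcript of the cohesin loader NIPBL, had members 129, 133 and 143 bp from a start. Its times were 10.2, 7.52 and 35.7 in replicate 1 and 8.40, 10.4 and 40 in replicate 2. It was chosen for mention after its values were seen. Over all members, 26.4% had another shared site within 50 bp on their strand, against 32.8% of the other shared sites, and 60 members (7.11%) had another member within that distance. Within 200 bp the shares with another shared site were 44.2% and 43.3%, so the direction turned with the window.

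Within genes, the members were spread thinly. Of 5072 genes with a shared site, 484 held a member, of which 425 held 1, 42 held 2 and 17 held 3 or more. NEAT1 and ZNF711 held 5 each, RPL37 held 4, and 14 genes held 3 each. Of these 14, FP671120.1, CPSF6 and ANKRD30BL had the longest mean log2 times and are described here. The members of NEAT1 had replicate 1 times of 7.46, 31.2, 8.40, 38.5 and 14.9 and replicate 2 times of 18.9, 31.2, 6.67, 13.0 and 10.5, in order along the gene. All 5 were exonic, and 3 of them lay towards the 3′ end, 21667, 22524 and 22547 bp from the start of a gene of 22767 bp. The other 29 shared sites of NEAT1 had medians of 2.25 and 2.46, and the highest among them reached 13.3 and 9.17, so the groups overlapped in each series taken alone.

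ZNF711 encodes a zinc finger transcription factor on chromosome X, and its 5 members were spread over its introns and 1 exon. Their times along the gene were 8.62, 10.5, 35.7, 10.0 and 29.4 in replicate 1 and 9.26, 8.70, 9.71, 5.35 and 31.2 in replicate 2. The last of them, at position 85262206, lay 4 bp downstream of a shared site with 5.95 and 6.33. The other 41 shared sites had medians of 2.30 and 1.90, although 1 of them reached 50 in replicate 1 with 3.60 in replicate 2. Both sarkosyl tables list no site on the minus strand of chromosome X, so genes of that strand could supply no member.

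**Figure D3:**
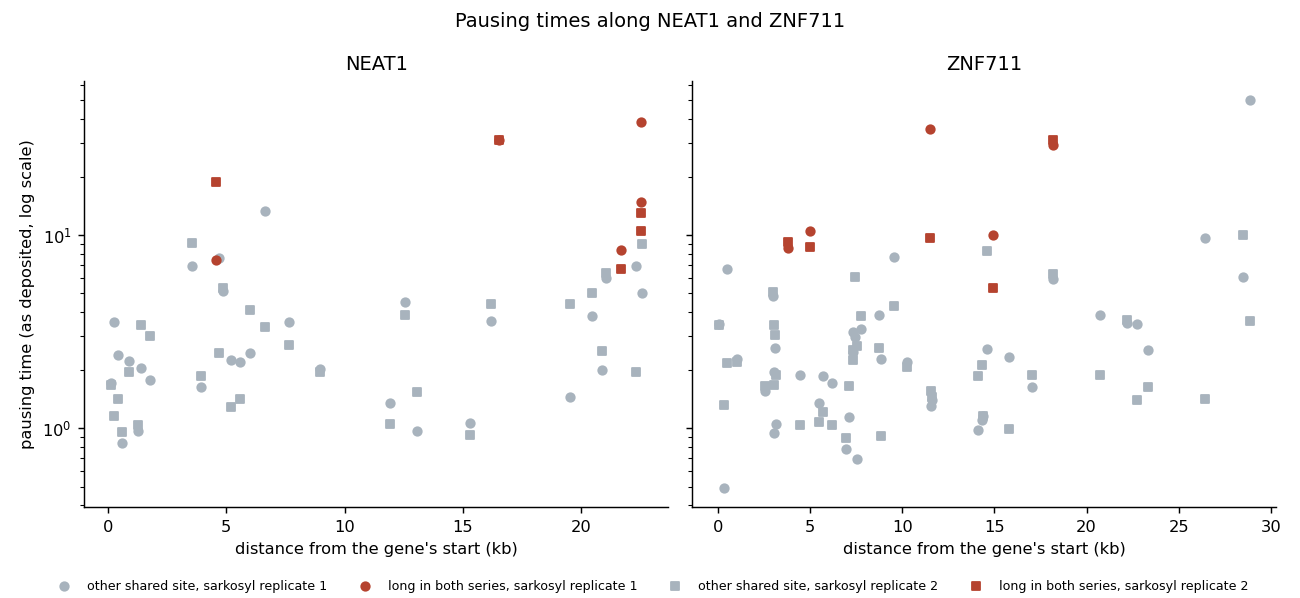
Sarkosyl pausing time (y axis, as deposited, log scale) of each shared site along NEAT1 and ZNF711 against the distance from the gene's annotated start in kb; circles are replicate 1, squares replicate 2, and red marks the 5 members of each gene. Other shared sites lie between the members along both genes, and NEAT1 has 3 of its 5 near its 3′ end.

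RPL37, a ribosomal protein gene, had its 4 members on chromosome 5, 69, 2947, 3516 and 5804 bp downstream of a start, all within annotated UTRs of some transcript. Their times were 12.8, 83.3, 11.2 and 11.6 in replicate 1 and 6.45, 43.5, 15.9 and 9.09 in replicate 2. The site at 40829608 was the longest of these in both series and among the longest of all members. Other members with the longest times in both series were exonic sites of HNRNPA3 (58.8 and 50, at 177222890 of chromosome 2), an RNA-binding protein gene, and of the non-coding genes AL391095.3 (47.6 and 100) and ASH1L-AS1 (43.5 and 66.7). An intronic site of TPRN (43.5 and 76.9) also ranked among them. Outside genes, a site 1015 bp past the end of HNRNPH1 on chromosome 5, at 179613163, had 111.0 and 58.8. A plus-strand site at 28725592 of chromosome 17 had 62.5 in both series and lay 742 bp upstream of the divergent start of TLCD1 and 1233 bp past the end of RPL23A. These sites show that the longest times were found in exons, introns and intergenic sequence alike.

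Past gene ends the members showed no single preferred distance. Of the shared sites up to 500 bp past an end 5.29% were members, and the share stayed between 4.52% and 6.91% out to 4000 bp. At 4001 to 5000 bp it was 0.943%, 1 of 106. The ribosomal RNA genes, which RNA polymerase I transcribes, were a distinct case. On chromosome 21, members lay 405, 417 and 510 bp past the end of RNA45SN2, at 8219707, 8219719 and 8219812, and at the same 3 distances past RNA45SN1, at 8446977, 8446989 and 8447082. The first set had 62.5, 83.3 and 83.3 in replicate 1 and 16.9, 62.5 and 76.9 in replicate 2, and the second had 55.6, 58.8 and 90.9 and 10.6, 47.6 and 41.7. GENCODE assigns the first set to FP671120.1, a lincRNA that spans the repeat. These copies are nearly identical in sequence, so reads could be placed on either and the 2 sets are not independent. Neither set is listed in a sarkosyl-free table. Another of the longest members, with 62.5 in replicate 1 and 66.7 in replicate 2, lay at 136062 of the contig 22_KI270733v1_random. It was 7033 bp past the end of an RNA5-8SN2 gene. The sites at 8219812 and 8446989, also among the longest members, lay 7088 and 7014 bp past such an end. Whether the contig site is a further copy of the chromosome 21 sites was not tested. Within annotated rRNA genes and pseudogenes, 9 of 210 shared sites were members (4.29%), close to the background. Those include 3 minus-strand members in an rRNA-like stretch of ANKRD30BL on chromosome 2, whose replicate 1 times of 13.9, 167.0 and 62.5 faced replicate 2 times of 8.62, 5.43 and 5.62.

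Mitochondrial transcripts, made by a separate single-subunit polymerase, were nearly absent from the members. Only 1 of 860 mitochondrial shared sites was a member, in the 16S rRNA gene MT-RNR2 at position 2240 (14.1 and 5.26), whereas such sites made up 5.00% of the other shared sites. Of the mitochondrial sites listed in 1 sarkosyl series only, 0 of 214 in replicate 1 and 0 of 210 in replicate 2 were long. If sites were independent draws, shares of up to 1.40% and 1.43% would be allowed, but sites of 1 library are not replicates. In the sarkosyl-free series 7.66% and 6.11% of mitochondrial sites were in the top 10% of their table.

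Gene groups were counted among the members against the 4.68% of all shared sites, without a test, since the lists were drawn up with earlier results known. The cytosolic ribosomal protein genes held the most members in number, 26 in 18 genes, but with 582 shared sites their share was 4.47%, at the background. Histones (8 of 148, 5.41%), hnRNP genes (9 of 179, 5.03%) and translation factors (9 of 167, 5.39%) were near it too. Their longest members were in HIST1H2BE (12.8 and 15.6), HNRNPA3 and EIF3D (40 and 71.4), the last being 11 bp past the end of an exon. Medians over all shared sites of these 4 lists were 1.79 to 2.34 in replicate 1 and 1.34 to 1.71 in replicate 2, against 1.46 and 1.46 over all shared sites.

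Some other groups had higher shares. The SR splicing factors, which bind exons and guide splice site choice, had 8 members of 79 shared sites (10.1%), in SRSF1, SRSF3, SRSF5, SRSF6, TRA2A and TRA2B. The longest by its lower value was in TRA2A (11.8 and 20.8), 207 bp from a start. Zinc finger genes of chromosome 19 had 21 members of 183 (11.5%) in 15 genes, the longest in ZNF793 (31.2 and 22.7), 24 bp from a start. Their median over all shared sites was 1.42 and 1.96. Actin, tubulin and vimentin genes had 6 of 49 (12.2%), led by TUBB2B (23.3 and 10.2), and nuclear long non-coding RNAs had 7 of 59 (11.9%), in NEAT1 and MALAT1. Nucleolar assembly genes had 7 of 78 (8.97%), led by NOLC1 (20 and 35.7). Immediate early transcription factors had 8 of 101 (7.92%), in EGR1, FOS, IER2, JUN and JUNB, led by JUN (37.0 and 12.3).

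Of the genes that act on pausing itself, few sites were available. The pause and elongation factors had 3 members of 28 shared sites (10.7%). They lay in HEXIM1, the inhibitor of P-TEFb, with a site 134 bp from its start at 71.4 and 8.62, and in SUPT5H, the large subunit of DSIF. RNA polymerase II subunits had 2 of 12, led by POLR2C (16.1 and 9.09), 29 bp from a start. Spliceosomal snRNA genes had 4 of 41, led by the U1 variant RNVU1-14 (30.3 and 41.7), a multi-copy family whose assignment is uncertain. RNA polymerase III genes had 1 of 12, in the signal recognition particle RNA RN7SL3 (40 and 6.76), also multi-copy. Counts this small describe the sites listed and no more.

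Groups with lower shares were the genes of oxidative phosphorylation (1 of 68, UQCRFS1 at 11.8 and 5.29), glycolysis (1 of 71, PKM at 23.3 and 9.90) and heat shock proteins and chaperonins (2 of 79, led by HSPA12A at 14.1 and 8.85). Mitochondrial ribosomal proteins (1 of 40, MRPL51 at 13.3 and 6.99), proteasome subunits (1 of 32, PSMC6 at 8.47 and 8.40) and snoRNA host genes (5 of 163, led by ZFAS1 at 10.8 and 13.2) were also below the 4.68%.

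Sequence was not used by the rule either. Bases around a site could be read for 361 members (42.8%) and 8179 other shared sites (47.6%), those with an exon or a RefSeq promoter window over all 41 bases, so introns are mostly missing. The largest difference at a single position was in thymine 4 bases before the site. Thymine stood 4 bases before the site in 165 of the 361 members (45.7%), against 28.2% of the others, and 3 bases before it in 29.4% against 16.3%. At least 1 of these positions held thymine in 62.0% of members and 39.9% of others, and both did in 13.0% and 4.62%. In the NEAT1 lines above, 2 of the 4 members shown carry thymine at 1 or both of these positions, while its 5 short sites have none there. Those short sites were picked for their sarkosyl times, so the lines are examples only and do not measure the difference.

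**Figure D4:**
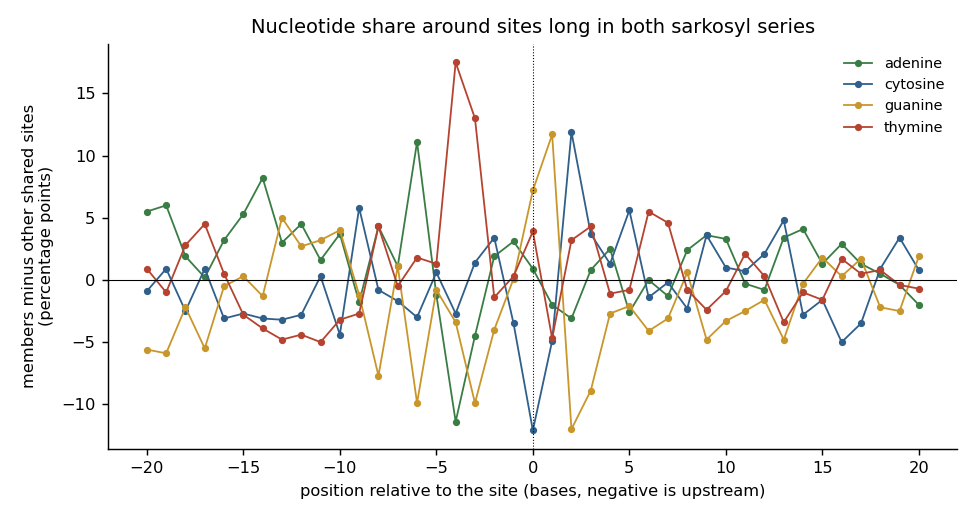
Share of each nucleotide at members minus its share at other shared sites (y axis, percentage points) by position relative to the site (x axis, bases), over 361 members and 8179 other sites. The largest values are thymine at 4 and 3 bases before the site, 17.5 and 13.0 points, and differences beyond 10 points stay between 6 bases before and 2 after.

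Other bases within reach of the site differed as well. Adenine stood 6 bases before the site in 39.6% of members and 28.5% of others, and 4 bases before it in 14.1% and 25.5%. The site itself was cytosine in 60.9% of members and 73.0% of others. The base after it was guanine in 37.7% and 26%. The next base was cytosine in 41.8% and 29.9%, and guanine in 17.5% and 29.5%. Cytosine at the site with guanine after it was at 26.9% of members and 20.9% of others, as in the ASH1L-AS1 and H2AFZ lines. Guanine at the site with cytosine before it was at 22.7% and 16.3%. The rule for calling sites is not given, so which pair matches the arrangement known from pause sites cannot be told. The 8 combinations of a nucleotide and a position named before these pairs, at 6 positions, were picked by a difference of at least 10 percentage points after the shares had been seen.

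The word formed by the 5 capital bases was varied. The 361 members had 150 different words. The most common at other sites was AGTCC, at 7.01% of them but 3.60% of members (13 of 361), and AGGCC stood at 2.87% and 0.277%. Words more common at members were CGACG (5.82% against 3.50%), TCCGC (5.54% against 2.43%) and TTTGC (2.22% against 0.611%). Of the 4 lines of short NEAT1 sites that do not read CGACG, 3 have AGTCC and 1 has AGGCC. The member at chr11:65444421-65444461 also has AGTCC, so this word did not by itself set a site apart.

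The thymine difference was present within position classes. Among promoter-proximal sites thymine 4 bases before the site was at 41.3% of 218 members and 24.8% of others, and among exon sites at 56.4% of 101 members and 29.5% of others. Thymine 3 bases before the site was at 20.2% and 13.3% in the first class and 45.5% and 17.4% in the second. Mean GC content was compared as well. The 20 bases before a member had 54.7%, against 57.8%, and the 20 bases after it 56.3%, against 57.2%. With 50 bases before the site in place of 20, the difference of -3.14 percentage points was -3.8. The 200 bases around the site, read for 239 members and 4802 other sites only, had 54.8% in both sets.

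Motifs searched on the site's strand were close to the background. GT directly after the site, as at a 5′ splice site, was at 5.54% of members and 4.72% of others, and GGTAAG anywhere in the 41 bases at 1.39% and 0.831%. TTTT within the 20 bases after was at 7.76% and 6.88%. GGG was at 29.1% and 30.2% within the 20 bases before and at 28.5% and 30.6% within the 20 after. AATAAA, the polyadenylation signal, was within the 50 bases before at 1.28% of 312 members and 1.24% of others. These shares say only which letters stand in the window.

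At unshared sites, which the rule did not use, both sarkosyl series had the same direction as the members for all 8 combinations; those at 1 position are tied to each other. The sarkosyl-free values that follow cover all sites of those tables, shared sites included. Thymine 4 bases before the site was at 45.3% of the long unshared sites of replicate 1 and 24.6% of its other unshared sites, and at 42.2% and 25.7% in replicate 2. In the sarkosyl-free series the direction was the opposite: 9.91% of the long sites and 14.8% of the rest in replicate 1, and 10.4% and 14.9% in replicate 2. As long minus other, that is 18.6 ± 3.01 percentage points with sarkosyl and -4.64 ± 0.295 without (SD, n = 2 each). The exact permutation test over series gave p = 0.33, the smallest possible. Beside this the site base itself differed between the tables: of the sites that were not long, it was cytosine in 76.5% and 72.7% with sarkosyl and in 52.5% and 24.6% without. The part of that difference in the result was not tested.

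**Figure D5:**
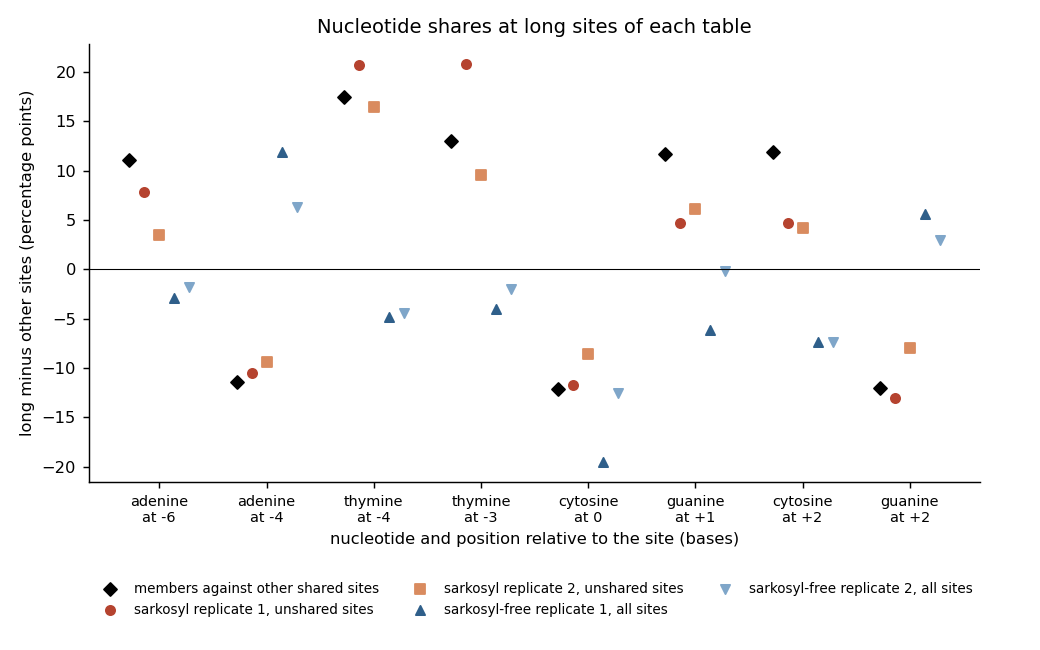
Share of a nucleotide at long sites minus its share at the other sites (y axis, percentage points) for the 8 combinations of nucleotide and position chosen at members, in members (diamonds), the unshared sites of each sarkosyl series (circle, square) and all sites of each sarkosyl-free series (triangles). Members and both sarkosyl series fall on the same side of 0 for each combination; for 7 of the 8, all but cytosine at the site, both sarkosyl-free series fall on the other side.

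The sarkosyl-free series give an independent reading of the members. Of the 844 members, 102 (12.1%) were listed in sarkosyl-free replicate 1 and 104 (12.3%) in replicate 2, whereas 28.3% and 24.4% of the other shared sites were. Counting a listed site within 5 bp, the members reached 24.8% and 20.4% and the others 42.2% and 36.9%. The lower listing was seen in the promoter-proximal class (14.4% and 14.1% of members against 33.8% and 28.5%) and in exons (8.18% and 12.7% against 23.8% and 21.1%). Why a site is not listed is not stated, and absence from a table is not a short time.

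At the members that were listed, the sarkosyl-free times ran from 0.183 to 24.4 in replicate 1, with a median of 0.867, and from 0.254 to 200 in replicate 2, with a median of 2.48. The other shared sites had medians of 1.15 and 1.67. The log2 difference of members from the other shared sites was thus -0.41 in replicate 1 and 0.57 in replicate 2, a mean of 0.08 ± 0.69 (SD, n = 2). The exact sign-flip permutation test, two-sided, gave p = 1.0, where 0.5 is the smallest it can give. The difference had opposite signs in the 2 series and was within their spread. Of the listed members, 3 in replicate 1 and 2 in replicate 2 were in the top 10% of their sarkosyl-free table, beside 1.93% and 2.1% of the other shared sites listed there.

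Single sites were tested with limma over the 13905 sites shared by both sarkosyl-free series, 58 of them members. With Benjamini-Hochberg adjustment, 1 site was longer than its series median (0.00719% of those tested) and 0 were shorter (0.0%), and none of the 58 members was called in either direction; the smallest adjusted p among members was 0.0884. At an unadjusted p below 0.05 there were 3551 sites, 1319 longer and 2232 shorter. Of the members 0 were longer and 22 shorter by that measure (37.9%), beside 30.0% shorter among the 2909 other sites of all 4 tables, of which 1701 lay below the median of both series. In simulated data at the observed spread, the same for every site, the fit recovered 0 of 200 sites changed by a log2 of 2, 96 at 4 and 196 at 6. False calls numbered 0, 8 and 9. A log2 change of 2 was thus not detected in that setting, which does not cover sites of differing spread. With limma's trend and robust prior, 2742 sites and 4 members were called, 2 of the members in each direction.

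The 5 members at the upper end of the sarkosyl-free range were all promoter-proximal except the site on chromosome 22. At the lower end, EIF3A, SRSF1 and RF00156 were promoter-proximal too. The longest means were at MLLT10 (24.4 and 10.3 without sarkosyl, 13.2 and 5.81 with it), 31 bp from a start, JPX (8.70 and 23.8; 15.4 and 7.81), a long non-coding RNA of the X inactivation centre, and TOR1AIP2 (11.6 and 14.7; 16.4 and 21.3), 171 bp from a start. NFKBIB (7.58 and 11.4; 47.6 and 7.25), an inhibitor of NF-κB, and a minus-strand site at 38479968 of chromosome 22 (7.94 and 17.2; 9.01 and 5.75) came next. The lowest of the 4 values at TOR1AIP2 was 11.6. The shortest means were at Z93241.1 (0.327 and 0.376 without sarkosyl, 10.5 and 8.40 with it), EIF3A (0.450 and 0.465; 16.1 and 7.04) and a plus-strand site at 157030487 of chromosome 5 (0.708 and 0.327; 20 and 4.78). SRSF1 (0.829 and 0.300; 9.17 and 14.9) and a copy of the snoRNA family RF00156 (0.308 and 0.949; 9.26 and 13.7), a multi-copy family, followed. At these 5 sites the sarkosyl and sarkosyl-free values did not overlap, but the sites were picked for their extreme sarkosyl-free times, so the gap is a description. The EIF3A site is the last base of the snoRNA SNORA19 within EIF3A, 127 bp from that RNA's start. Likewise, the RF00156 site is the last base of its snoRNA copy, 133 bp from that copy's start.

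As a check of the labelled cells, 4 of 7 markers of HEK293 cells had listed sites in each series, KRT8, KRT18 and VIM in all of them. Of 7 markers of blood-derived cells, none had a site in 3 of the series and PTPRC had 1 site in sarkosyl replicate 2. The positions count from 1: sites at the exact last base of an annotated gene numbered 73 on the plus strand and 72 on the minus strand among shared sites, against 20 and 19 at the base after. Of the sites at such a last base, 0 of the 73 on the plus strand and 4 of the 72 on the minus strand were members, beside 4.68% of all shared sites.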

How the data were processed

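The deposited tables hold, per the file headers, the mean, SD, Monte Carlo error, quartiles and median of a fitted estimate per site and a pausing time, which in every row was the reciprocal of that median. Per the submitters' processing notes, cutadapt 1.14, HISAT2 2.1.0, SAMtools and bedtools were used with build hg38; the rule for calling sites and the model are not given in the sources used here. The number of unmapped value columns was 0. Of 17 samples, 1, labelled as a treatment, was not analysed here.

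Shared sites, the 90% quantiles (pandas 2.3.3, numpy 2.4.6, Python 3.11.15) and log2 times were computed from the deposited values. Sites were annotated with GENCODE 29 on GRCh38, in a fixed order. First came mitochondrial, other contig and within 300 bp downstream of any annotated transcript's start (small RNA genes included). Then came within 50 bp of an exon end, exon, intron, upstream antisense (1000 bp), antisense, and past an end (5000 bp). Sequence came from GENCODE transcripts and RefSeq promoter windows. rRNA gene ends came from RefSeq. The sarkosyl-free fit used limma 3.58.1 in R 4.3.3 on log2 times centred on each series' median, adjusted over all sites at a threshold of 0.05, and was tested on simulated data. Permutation tests were exact. Plots used matplotlib 3.10.9.

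The members, gene lists and tests were chosen with earlier results of these data known. Sites named singly were the 10 members with the longest lower time (1 per gene), the members of the 6 genes with most members (ties by mean log2 time), the 5 highest and 5 lowest sarkosyl-free means, the longest member of each list and the 3 nearest the threshold on each side; others are marked in the text. A marker of the planned list and some sequences are not reported here. The labels call the replicates biological duplicates. Alternatives covered the quantile, the sites kept, windows, scaling and leaving out each series. The files give no read numbers, so depth is unknown and no counting interval of a level was computed.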

Additional observations from a re-analysis of the deposited data

Results flagged for a closer look

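For 7 of the 8 combinations of a nucleotide and a position picked at members, which lie at 6 positions, the long sites of both sarkosyl series differed from the rest in one direction and the long sites of both sarkosyl-free series in the other. The sarkosyl values leave out the sites used to choose the members, the sarkosyl-free values cover all sites of those tables, and the combinations were picked after the shares had been seen. As the sarkosyl mean minus the sarkosyl-free mean of the difference between long and other sites, in percentage points, thymine gave 23.3 at 4 bases and 18.2 at 3 bases before the site. Adenine gave -19.1 at 4 bases and 8.04 at 6 bases before it. After the site, guanine gave 8.55 at the first base and -14.8 at the second, and cytosine gave 11.8 at the second. The two-sided exact permutation test over series gave p = 0.33 for each, the smallest it can give with 2 series against 2, and no adjustment over the 11 features compared can lower it. At guanine directly after the site, sarkosyl-free replicate 2 differed by -0.20 points only.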

How the results depend on the processing

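With the replicate number as a block, the 11 differences between sarkosyl and sarkosyl-free series kept their values, 23.3 percentage points for thymine 4 bases before the site, and the exact sign-flip test gave p = 0.5 for each, the smallest it can give with 2 pairs, which share only a number. Of 102 alternatives to 20 results, 69 left the value within its counting interval or spread, or a count within 1.5 times; 35 of the 102, on the 151 to 200 bp bin, on thymine 4 bases before the site and on this block, were chosen after seeing the data. The thymine difference of 17.49 percentage points and the GC difference of -3.14 moved under none of theirs. The 844 members became 2071 with an 80% and 359 with a 95% quantile, 211 among the more certain 50% of shared sites and 440 on the plus strand alone. The promoter-proximal difference of 6.29 points was 0.71 with the 80% and 12.04 with the 95% quantile and -0.66 with a 150 bp window; with members from 1 sarkosyl series alone it ranged from -0.17 (without replicate 1) to 1.06. The intron difference of -1.70 was 1.38 and -5.42 with these quantiles and 0.21 to 3.21 from 1 series. For another shared site within 50 bp, the difference of -6.36 was -9.75 with the 80% quantile, -2.94 without mitochondrial and non-primary contigs, -12.68 among the more certain sites, 0.92 with a 200 bp window and -10.79 to -7.84 from 1 series. The bin difference of 4.82 was 3.01 with the 80% quantile, 0.60 among the more certain sites, 7.71 in protein-coding genes and 2.52 to 2.76 from 1 series. The sarkosyl-free log2 difference of 0.08 was -0.26 among the more certain sites and -0.07 at sites of all 4 tables. It ranged from -0.26 to 0.43 leaving out a sarkosyl series, and from -0.41 (without sarkosyl-free replicate 2) to 0.57 leaving out a sarkosyl-free one. The 1 limma call became 0 with quantile normalization, 518 with normal scores, 3 centred on means, 2742 with the trend and robust prior, 0 without mitochondrial and non-primary contigs and 7 among the more certain sites. The cause was not tested for any of these. Depth is unknown, and long times rest on few distinct rates.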
